A study of Mus musculus with 6 samples.

Results

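Accessible chromatin was compared between aged and young small-intestinal organoids at the genes of 10 cytokine receptors that gut epithelium uses to sense immune signals. The genes were Ifngr1, Ifngr2, Ifnar1, Ifnar2, Ifnlr1, Il10rb, Il22ra1, Il4ra, Il13ra1 and Tnfrsf1a. Their regions were all consensus peaks of the deposited annotation that carry the name of 1 of these genes and lie within 50 kb of the annotated transcription start site (TSS). This gave 84 of 156733 peaks, for 10 of the 30464 genes that have a peak within that distance. The rule uses names and distances and no measured value, although the genes themselves were picked with earlier results of these data known. Without the limit on distance the 10 names cover 100 peaks.

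The assay was ATAC-seq, in which the Tn5 transposase cuts and tags open chromatin. The organoids, epithelial cultures with stem cells and their progeny, were derived from C57BL/6JRj mice of 2 to 3 months (young, 3 libraries) or 20 to 22 months (aged, 3 libraries). All were untreated and had been in culture for 3 to 5 weeks, and replicates 1, 2 and 3 of both ages were taken at passage 4, 3 and 2. The labels do not state how many animals stand behind the 3 libraries of either age, so the p-values measure only the spread between libraries, which may be technical. As a model, such cultures show the epithelium outside the animal, away from the immune cells that make most of the ligands of these receptors.

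Type I interferons bind Ifnar1 with Ifnar2, interferon gamma binds Ifngr1 with Ifngr2, and interferon lambda binds Ifnlr1 with Il10rb. Il10rb is a shared chain: paired with Il22ra1 it forms the receptor of IL-22, a driver of epithelial repair and antimicrobial defence. Il4ra pairs with Il13ra1 to bind IL-4 and IL-13, the cytokines of the response to worms, and Tnfrsf1a is the main TNF receptor of epithelial cells. The interferon and interleukin chains signal through JAK kinases and STAT factors, Tnfrsf1a through NF-kB and caspases.

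The letters just upstream of 4 of the gene starts show the range among these promoters, from the most open (Ifngr1 and Il22ra1) through Ifngr2, close to the median, to the least open (Tnfrsf1a). Each run is 250 bases on the strand of the gene, 5′ to 3′, ending at the base before the RefSeq start (GRCm38.p6): Ifngr1 at chr10:19591699-19591948, Il22ra1 at chr4:135727909-135728158, Ifngr2 at chr16:91546809-91547058 and Tnfrsf1a at chr6:125349473-125349722, all on the plus strand. Capitals mark motif matches on either strand: the GC box (GGGCGG), the CCAAT box (CCAAT), AP-1 (TGANTCA), the NF-kB consensus, GAS (TTCNNNGAA, the element of STAT dimers) and the ETS core (CCGGAAG).
Ifngr1: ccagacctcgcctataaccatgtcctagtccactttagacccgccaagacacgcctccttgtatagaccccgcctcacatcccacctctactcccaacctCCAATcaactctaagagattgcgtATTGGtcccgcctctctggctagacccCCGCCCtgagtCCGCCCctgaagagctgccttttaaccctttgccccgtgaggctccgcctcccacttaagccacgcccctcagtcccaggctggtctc
Il22ra1: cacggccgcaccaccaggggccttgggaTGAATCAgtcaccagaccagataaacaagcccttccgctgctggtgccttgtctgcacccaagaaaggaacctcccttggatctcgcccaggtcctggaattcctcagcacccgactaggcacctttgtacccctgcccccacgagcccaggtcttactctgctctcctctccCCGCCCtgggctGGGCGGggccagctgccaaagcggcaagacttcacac
Ifngr2: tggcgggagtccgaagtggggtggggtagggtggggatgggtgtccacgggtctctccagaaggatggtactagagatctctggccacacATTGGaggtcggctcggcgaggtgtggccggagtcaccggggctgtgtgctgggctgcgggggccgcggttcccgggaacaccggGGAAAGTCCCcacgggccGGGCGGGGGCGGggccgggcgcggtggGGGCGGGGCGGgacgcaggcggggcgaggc
Tnfrsf1a: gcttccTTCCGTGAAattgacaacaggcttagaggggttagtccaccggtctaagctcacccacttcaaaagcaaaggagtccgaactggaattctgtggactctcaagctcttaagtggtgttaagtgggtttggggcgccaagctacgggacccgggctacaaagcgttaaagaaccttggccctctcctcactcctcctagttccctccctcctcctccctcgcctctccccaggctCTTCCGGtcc

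A window was at hand for 9 of the 10 genes. A GC box was found in 7 of these 9, all but Ifnar2 and Tnfrsf1a, against 32.7% of all 32851 windows of the same length. All 9 were richer in GC than the median window (54% or more against 52.4%), and windows of like GC content were not compared. Ifngr1 held a pair of GC boxes 99 and 88 bases before the start and CCAAT boxes at 150 and 126. Il22ra1 held GC boxes at 49 and 37 bases and an AP-1 match at 222. Ifngr2 had 4 GC boxes within 57 bases of its start, which overlap in part, and the only NF-kB match of the 9 windows, at 75 bases (3.9% of all windows hold one). Tnfrsf1a, the receptor with the least open start, had an ETS core match at 10 bases and a GAS match at 244. GAS was otherwise found only in Ifnar2, at 214 bases (7.0% of all windows). The ETS core also occurred in Ifnar1 (6.9% of all windows), the CCAAT box in Ifngr2 and Il13ra1 (33.8%), and AP-1 in no other of the 9 (6.7%). The ISRE core (GAAANNGAA, present in 7.1% of all windows) and the TATA box (TATAAA, 12.4%) were in none. A match says only that these letters are present.

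GC content of the windows ran from 54% in Ifnar2 to 74.0% in Ifngr2, with a median of 52.4% over all windows. The number of CpG pairs was 9 in Il22ra1 and Tnfrsf1a, 11 in Ifngr1 and 25 in Ifngr2. By GC content the most open of the printed promoters, at 59.2% (Ifngr1) and 62.4% (Il22ra1), lay between Tnfrsf1a (55.6%) and Ifngr2.

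The libraries held 7278161 to 26093521 counts in peaks. Young replicate 1 was the shallowest, and 5283 of all peaks had a count of 0 in it against 123 to 718 in the others. Promoter peaks were found for 10 of 13 epithelial marker genes (all but Ezr, Krt19 and Vil1), with a median of 41.0 CPM per kb (CPM are counts scaled to each library's TMM-adjusted total in peaks). Of the 17 immune markers 4 had such a peak: Cd79a, Lyz2, Cd68 and Itgax (median 2.43 CPM per kb, highest 22.2). Their summed level ranged from 10.5 to 11.8 CPM in young libraries and from 9.86 to 11.4 in aged. The other immune markers, Ptprc, Cd3e, Itgam and Spi1 among them, had none. Promoter peaks were also found for 5 of 10 markers of fibroblasts and smooth muscle (median 7.62 CPM per kb, summed level 23.6 to 30.6 CPM in young and 27.1 to 32.6 in aged) and for 3 of 5 of neurons and glia (median 9.13, summed 14.7 to 19.2 and 17.4 to 19.6). Of 5 endothelial markers 1 had a peak, at 2.69 to 3.71 CPM in young and 1.86 to 2.22 in aged libraries, without overlap. The aged libraries lay below all young ones at 7.09% of all tested peaks as well. A missing promoter peak does not show that cells of a type were absent, since the epithelial genes Ezr, Krt19 and Vil1 had none either. The part of non-epithelial cells in the receptor values was not tested. Each peak value comes from the whole culture, so fewer cells of a type and less open chromatin per cell cannot be told apart.

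At the gene starts, the 10 receptors differed from each other in level, and young and aged libraries overlapped at each of them. Such overlap is the common case. Among all tested peaks, only 7.66% had all aged libraries above all young ones and 7.09% had them below. Per kb of peak, the most open start was that of Ifngr1, at 91.5 ± 7.53 CPM (SD over the 6 libraries, both ages together). Il22ra1 followed at 85.7 ± 7.55 and Ifnar1 at 81.1 ± 3.23, and the ranges of these 3 over the libraries overlapped. They lay at the 96.6th, 95.6th and 94.8th percentile of the 11135 promoter peaks of protein-coding genes, whose median was 21.3 CPM per kb.

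Il10rb stood next, at 38.6 ± 2.51 CPM per kb, and its range of 35.4 to 42.1 touched no other receptor. Il4ra was at 27.2 ± 1.42 (25.5 to 29.0) and Ifngr2 at 22.8 ± 2.69 (17.5 to 24.8), again without overlap between them. The starts of Ifnlr1 (14.5 ± 1.28), Il13ra1 (13.5 ± 1.99), Ifnar2 (13.2 ± 0.929) and Tnfrsf1a (12.5 ± 1.27) lay below the median promoter, at the 37.8th to 34.0th percentile, and their ranges overlapped. Within each interferon pair the chains were thus unequal per kb: Ifngr1 was above Ifngr2, Ifnar1 above Ifnar2 and Il10rb above Ifnlr1 in all 6 libraries. These are levels of open chromatin per length and not amounts of receptor.

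**Figure D1:**
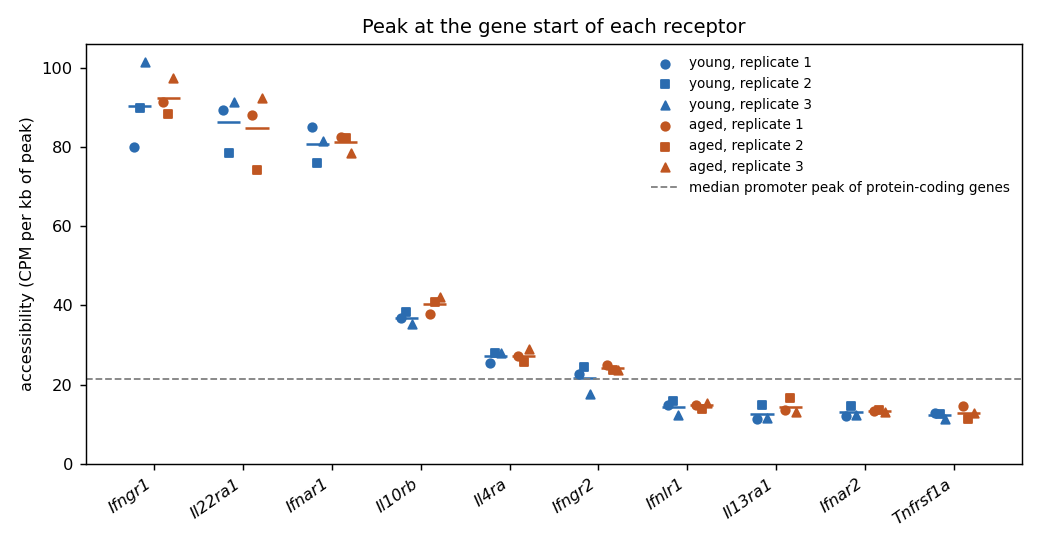
Accessibility of the peak at each receptor's gene start, in CPM per kb of peak (y axis), for the 10 receptors ordered by level (x axis). Points are the 3 young and 3 aged libraries, short lines the group means, and the dashed line the median promoter peak of protein-coding genes (21.3 CPM per kb). The 3 leftmost genes lie far above the other 7, and young and aged points overlap at every gene.

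For interferon gamma, the start peak of Ifngr1 (chr10:19591574-19592296), the ligand-binding chain, held 57.8, 65.1 and 73.5 CPM in young replicates 1 to 3 and 66.2, 63.9 and 70.5 in aged. The lowest and the highest value were both young, so the aged libraries lay inside the young range. The log2 fold change, aged over young here and throughout, was 0.02 (SE 0.084, 95% interval -0.15 to 0.19; edgeR quasi-likelihood test, Benjamini-Hochberg adjusted p = 0.968). The start peak of its partner Ifngr2, the chain that brings in Jak2, held 10.5, 11.3 and 8.12 CPM in young and 11.5, 11.0 and 11.0 in aged libraries. Young replicate 3 was low and the groups overlapped (log2 0.16, interval -0.12 to 0.44; edgeR adjusted p = 0.782).

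For type I interferon, the start peak of Ifnar1 (chr16:91484879-91485584) was at 60.1, 53.7 and 57.5 CPM in young and 58.4, 58.2 and 55.6 in aged libraries. All 3 aged values lay within the young range, and the interval of the difference, -0.15 to 0.17 on the log2 scale, was the narrowest of the 10 start peaks. Ifnar2, the chain with the higher affinity for the ligand, was at 13.3, 16.2 and 13.6 CPM in young and 14.6, 14.97 and 14.4 in aged libraries (log2 0.01, interval -0.23 to 0.25; edgeR adjusted p = 0.992). Again the young libraries spanned the aged ones.

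For interferon lambda, whose receptor is confined largely to epithelia, the Ifnlr1 start peak held 12.1, 12.9 and 9.97 CPM in young and 12.05, 11.3 and 12.6 in aged libraries (log2 0.05, interval -0.22 to 0.31). The shared chain Il10rb held 15.4, 16.1 and 14.8 CPM in young and 15.9, 17.1 and 17.6 in aged. At Il10rb the aged library was the higher one in 3 of 3 same-numbered pairs, yet the groups overlapped (log2 0.13, interval -0.10 to 0.35; edgeR adjusted p = 0.795). Its partner for IL-22, Il22ra1, held 63.7, 56.0 and 65.3 CPM in young and 62.8, 52.9 and 65.99 in aged libraries. Replicate 2 was the lowest library in both groups (log2 -0.02, interval -0.20 to 0.16).

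For IL-4 and IL-13, the Il4ra start peak was at 30.2, 33.2 and 33.1 CPM in young and 32.3, 30.3 and 34.3 in aged libraries, a log2 difference of 0.00 (-0.0027 before rounding, interval -0.19 to 0.18). Il13ra1, on chromosome X, was at 11.6, 15.1 and 11.9 CPM in young and 13.9, 17.05 and 13.3 in aged. In same-numbered pairs the aged library was the higher one in 3 of 3, and replicate 2 was the highest in both groups (log2 0.16, interval -0.10 to 0.43; edgeR adjusted p = 0.758). The Tnfrsf1a start peak was at 11.2, 11.1 and 9.81 CPM in young and 12.8, 9.84 and 11.3 in aged libraries, overlapping again (log2 0.09, interval -0.18 to 0.36).

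No receptor promoter passed the test. By the annotated distances 8 genes had a peak within 1 kb of the TSS and 0 of these were called, against 213 of 14319 promoter peaks of all genes (1.49%). None of the 8 had an unadjusted p under 0.05, and DESeq2 also called 0. For 3 genes the annotated distance does not point to the RefSeq start. The start peaks of Ifnar2 and Tnfrsf1a are listed 14.6 and 8.44 kb upstream of the annotated TSS, and that of Ifngr2 carries the name of the pseudogene Gm7860. The peak within 1 kb of the annotated Ifngr2 TSS is a weak one inside the gene, with a mean of 1.97 CPM (log2 0.30, edgeR adjusted p = 0.760). The values above are those of the peaks at the RefSeq starts, a choice made after the files were seen, and 0 of these 10 were called.

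Over all 84 receptor peaks, within genes and between them, age made no difference that passed the test. The filter on low counts left 81, and edgeR called 0 of 81, against 1491 of 132055 peaks overall (1.13%). The smallest adjusted p was 0.316. An unadjusted p under 0.05 was found for 5 of the 81 (6.17%), 4 higher and 1 lower in aged, against 9.71% of all tested peaks. DESeq2 called 0 and gave 5 with an unadjusted p under 0.05 as well. With the replicate number as a block edgeR again called 0 of the 81, against 2.67% of all tested peaks. In that fit 9 receptor peaks had an unadjusted p under 0.05, and the matching share over all peaks was not computed.

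Sizes were small too. The median log2 fold change of the 81 peaks was 0.04, against -0.01 for all tested peaks, and the median absolute value was 0.14 against 0.17. These absolute values compare peaks of unlike level. The median level was 3.97 CPM for receptor peaks and 1.63 for all peaks, tested or not. Among all tested peaks the 5th to 95th percentile ran from -0.56 to 0.51 near 1.71 CPM. Near 4.24 CPM it was narrower, from -0.41 to 0.40. The median changed sign between pairs: the log2 ratio of aged to young CPM (offset 0.1) had a median of 0.18 in pair 1, which holds the shallowest library, 0.02 in pair 2 and -0.06 in pair 3. With 1 library left out the fitted median ran from 0.0057 (without young replicate 2) to 0.12 (without young replicate 3). Of the 81, 47 were positive (58.0%, against 48.0% overall), and the range was -0.78 to 0.87. The 3 peaks left out, 2 of Ifngr1 and 1 of Il4ra, had means of 0.210 to 0.275 CPM.

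All 3 aged libraries lay above all 3 young ones at 8 receptor peaks (9.88%, against 7.66% of all tested peaks) and below them at 4 (4.94%, against 7.09%). The 8 belonged to Il4ra (3), Tnfrsf1a (2), Ifnar1, Ifnar2 and Ifngr1 (1 each). In same-numbered pairs, the aged library was the higher one in 3 of 3 at 17 of the 81 peaks (21%, 17% overall) and the lower one in 3 of 3 at 7 (8.60%, 16.7% overall).

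The data bound most of these differences. The 95% interval of the fold change stayed within 1.5-fold in either direction at 44 of the 81 peaks and within 2-fold at 65. The 16 peaks whose interval reached past 2-fold were all weak, with means of at most 1.46 CPM. A p that misses the threshold does not show that the ages were equal there.

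**Figure D2:**
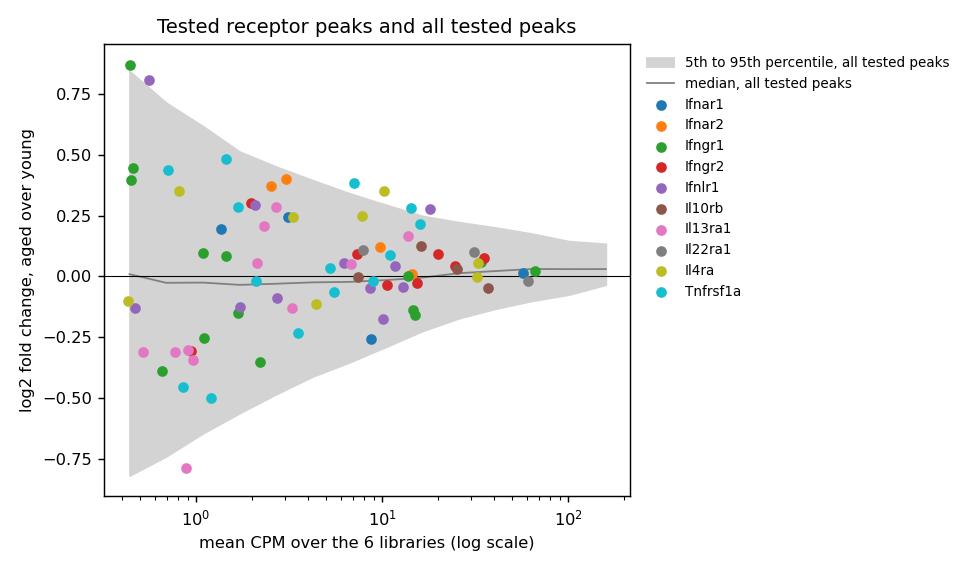
Log2 fold change of aged over young (y axis) against the mean CPM over the 6 libraries (x axis, log scale) for the 81 tested receptor peaks, coloured by gene. The grey band spans the 5th to 95th percentile of all tested peaks of like level and the grey line their median. Most receptor peaks lie inside the band, and those above 20 CPM lie close to 0.

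The 5 peaks with an unadjusted p under 0.05 were led by an Il4ra peak in intron 1 of the gene (chr7:125560463-125560710), 8.30 kb past the TSS. It held 8.56, 8.62 and 9.65 CPM in young and 12.8, 10.5 and 11.1 in aged. Here the groups did not overlap, with a log2 fold change of 0.35 (SE 0.13, interval 0.08 to 0.62; edgeR adjusted p = 0.316). The next peak of the same intron, 9.27 kb past the TSS and the strongest of Il4ra at 32.8 CPM, differed by 0.05 and overlapped.

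Of the others, a pair was named for Tnfrsf1a. The peak in intron 2 of the gene (chr6:125351444-125352185) was at 7.30, 5.64 and 5.70 CPM in young and 7.86, 7.21 and 8.42 in aged libraries (log2 0.38, SE 0.15; edgeR adjusted p = 0.356). Young replicate 1 fell inside the aged range. The other, 15.05 kb upstream of the annotated TSS, lies in an intron of Scnn1a, which encodes a subunit of the epithelial sodium channel, so the name of the nearest TSS does not tie it to Tnfrsf1a. It was at 13.5, 13.8 and 11.3 CPM in young and 16.96, 15.8 and 14.01 in aged libraries, without overlap (log2 0.28; edgeR adjusted p = 0.421).

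Second in order of p, an intergenic peak 24.9 kb upstream of Ifnlr1 (chr4:135661084-135661769), the strongest of that gene, was at 16.4, 17.4 and 15.5 CPM in young and 20.9, 17.4 and 21.6 in aged libraries. Pair 2 did not differ, while the other aged libraries stood above all young ones (log2 0.28; edgeR adjusted p = 0.352). The lower peak was intergenic, 25.4 kb upstream of Il13ra1, and weak: 1.26, 1.10 and 1.05 CPM in young against 0.364, 0.554 and 0.971 in aged libraries (log2 -0.78, interval -1.50 to -0.07; edgeR adjusted p = 0.450).

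**Figure D3:**
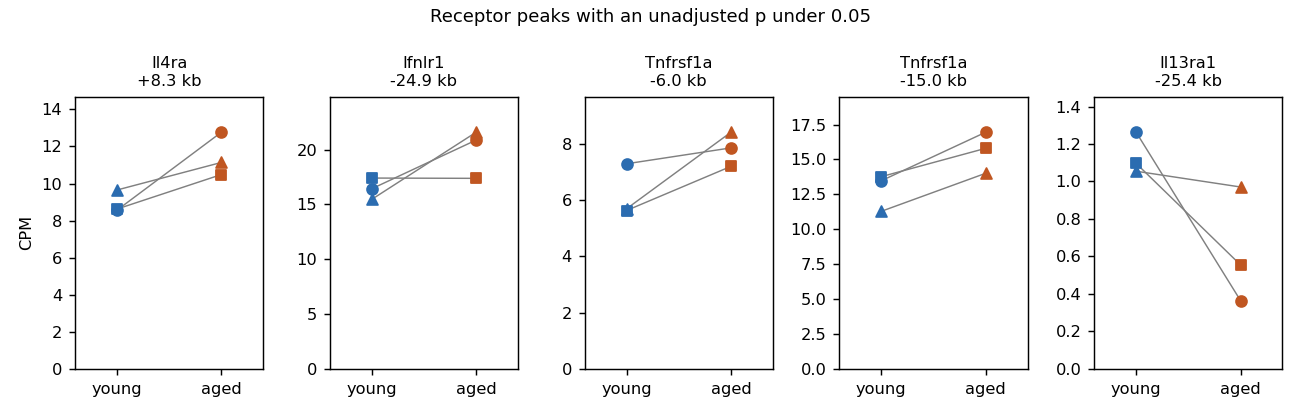
CPM (y axes, each from 0) of the 5 receptor peaks with an unadjusted p under 0.05 in young and aged libraries (x axes), titled by gene and distance to the annotated TSS. Each line joins a young and an aged library of the same replicate number (circle 1, square 2, triangle 3). The first 4 panels have higher means in aged and the last a lower mean at about 1 CPM, and none passed the adjusted test.

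The other 7 of the 12 peaks with the smallest p had unadjusted values of 0.0563 to 0.0894. They included a peak in intron 3 of Ifnar2 at 1.82, 2.91 and 2.85 CPM in young and 3.73, 2.96 and 3.92 in aged libraries (log2 0.40, edgeR adjusted p = 0.536), and the intergenic peak 7.04 kb upstream of Ifnar1, the strongest of Ifnar1 outside its start, at 8.42, 10.7 and 9.23 against 8.09, 8.36 and 7.69 (log2 -0.26, adjusted p = 0.583). Both separated the groups, in opposite directions, for the chains of the same receptor. Tnfrsf1a gave 3 of the 7. An intergenic peak listed 11.7 kb upstream of the annotated TSS was its strongest, at 15.97 CPM (log2 0.21). A peak listed 2.24 kb upstream of that TSS lies inside the gene, in intron 2 (0.48). The third, 8.56 kb past the annotated TSS, lies in an intron of Plekhg6 (-0.50). Weak peaks 38.8 kb upstream of Ifngr1 (0.87) and 15.1 kb upstream of Ifnlr1 (0.81) completed the 7, both with means under 1 CPM and intervals from below 0 to above 1.

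Several of the strongest receptor peaks lay inside the genes. Intron 1 of Ifngr1 held a peak 2.53 kb past the TSS at 32.3, 31.1 and 36.4 CPM in young and 36.0, 33.4 and 34.8 in aged libraries (log2 0.06). Intron 1 of Ifngr2 held the strongest peak of that gene, at 34.2, 31.8 and 37.7 against 36.1, 35.7 and 37.4 CPM (log2 0.08). Per kb this intronic peak, at 66.1 CPM, was more open than the Ifngr2 start, at 22.8. Outside its start, the strongest Ifnar2 peak lay in intron 1 at 10.1, 9.08 and 9.02 CPM in young and 9.77, 10.9 and 9.71 in aged libraries (log2 0.12, edgeR adjusted p = 0.849).

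Il10rb showed the same order as Ifngr2. Its intron 2 peak held 41.7, 37.5 and 34.9 CPM in young and 38.9, 38.8 and 31.8 in aged libraries, or 73.4 CPM per kb against 38.6 at the start. In Il22ra1 the intron 4 peak was at 27.9, 29.9 and 31.9 against 34.3, 28.6 and 33.7 CPM (log2 0.10), and in Il13ra1 the intron 5 peak at 6.88, 6.05 and 7.23 against 7.36, 7.16 and 6.25 (log2 0.05). Young and aged values overlapped at each of these peaks.

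Summed over all peaks of a gene within 50 kb, 0 of the 10 receptors passed the test, against 408 of 29256 genes tested (1.39%). In the main fit, which holds age alone, none had an unadjusted p under 0.05. For these sums CPM refer to the total over peaks within 50 kb of a TSS. Values for 8 of the 10 were positive, with a median of 0.04 against -0.01 for all genes. Tnfrsf1a, over 14 peaks, came closest: 82.4, 84.3 and 84.4 CPM in young and 92.3, 90.1 and 91.3 in aged libraries. Several of these 14 peaks lie in introns of Scnn1a or Plekhg6. Among them is the Scnn1a peak given above, with means of 12.8 CPM in young and 15.6 in aged on the scale of single peaks. The sum is thus not tied to Tnfrsf1a alone. The log2 fold change of the sum was 0.12 (SE 0.059, interval -0.002 to 0.25, edgeR adjusted p = 0.464). With the replicate block its unadjusted edgeR p was 0.0309 and the adjusted p 0.248. Tnfrsf1a was the only one of the 10 receptors whose groups did not overlap. The share of all genes without overlap was not computed. Among all tested peaks, the aged libraries lay above all young ones at 7.66% and below them at 7.09%. At the Tnfrsf1a start peak, given above, the ages overlapped.

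Ifnar2 was at 31.1, 33.6 and 30.1 CPM in young and 34.4, 35.04 and 32.8 in aged libraries (log2 0.10, edgeR adjusted p = 0.716). Il4ra was at 99.0, 97.8 and 100.5 against 106.2, 99.2 and 107.4 (0.07, adjusted p = 0.740). The other 7 lay between -0.01 (Ifnar1 and Ifngr1) and 0.05 (Ifnlr1), and the 95% intervals of all 10 stayed within a fold of 0.876 to 1.21. Counts were spread unevenly over the peaks: the top peak held 80.9% of the Ifnar1 sum but 20.0% of the Tnfrsf1a sum.

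**Figure D4:**
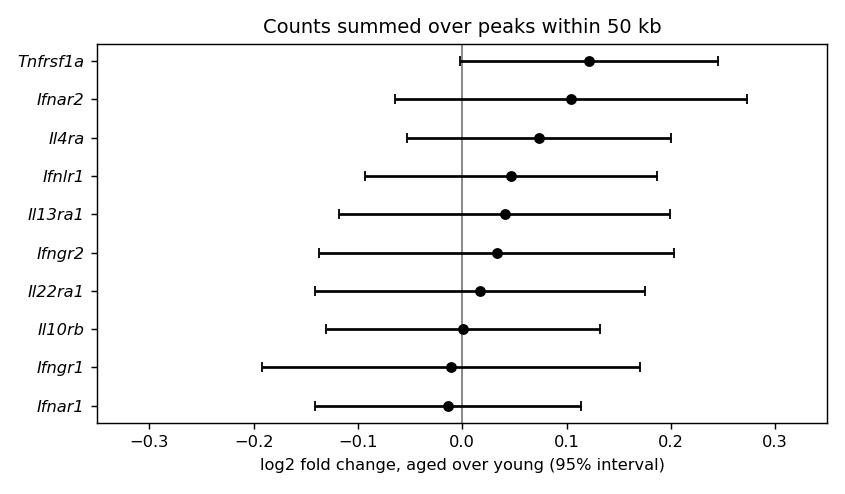
Log2 fold change of aged over young (x axis) with its 95% interval (bars) for counts summed over the peaks of each receptor within 50 kb (y axis). All 10 intervals include 0, and that of Tnfrsf1a only just does, from -0.002 to 0.25.

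Passage was tested beside age, 1 library of either age being available per passage, so passage and replicate number cannot be told apart. EdgeR called 0 of the 81 receptor peaks along passage, against 4 of all tested peaks (0.00303%), and 7 had an unadjusted p under 0.05 (8.64%, against 5.27% overall). The smallest was that of an intron 1 peak of Ifnar2, at 3.09, 2.19 and 1.53 CPM in young and 3.27, 3.23 and 1.79 in aged libraries at passages 4, 3 and 2 (log2 0.45 per passage, edgeR adjusted p = 0.650). An intergenic peak 9.61 kb upstream of Ifnlr1 went the other way, at 7.02, 9.04 and 9.92 against 6.86, 8.78 and 10.1 CPM (log2 -0.26 per passage, adjusted p = 0.765). The order of the passages was the same in both ages at each of these peaks. The Ifngr1 start peak was also among the 7 (log2 -0.11 per passage, adjusted p = 0.947).

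In the genome 4 of the 10 genes lie side by side on chromosome 16, in the order Ifnar2, Il10rb, Ifnar1 and Ifngr2, starting 0, 33.4, 112.2 and 174.3 kb from the Ifnar2 start. The stretch of 191.2 kb held 36 peaks, of which 19 carry the names of other, mostly noncoding, transcripts. EdgeR called 1 of the 33 tested peaks of the stretch, against 1.13% of all tested peaks. It was lower in aged and carries the name of none of the receptors. It is the promoter of the transcript A930006K02Rik, between Il10rb and Ifnar1, named here after its values were seen. It went from 15.2, 17.4 and 16.8 CPM in young to 12.4, 10.8 and 12.2 in aged libraries (log2 -0.50, SE 0.12; edgeR adjusted p = 0.0235). The call was lost without young replicate 2 (adjusted p = 0.0644), aged replicate 1 (0.0698), aged replicate 2 (0.154) and aged replicate 3 (0.106), and in libraries thinned to the shallowest (0.208). None of the 4 peaks between this promoter and the Ifnar1 start was called. Their log2 fold changes were 0.14, 0.19, -0.26 and 0.24. The third of them, the Ifnar1 peak 7.04 kb upstream given above, was also lower in all 3 aged libraries than in any young one. The fourth, 4.68 kb upstream of Ifnar1, went the other way. It was at 2.81, 3.18 and 2.53 CPM in young and at 3.45, 3.56 and 3.18 in aged libraries, before rounding again without overlap. The nearest peak on the other side, of 46.8 CPM and 12.5 kb upstream, was at 0.03.

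**Figure D5:**
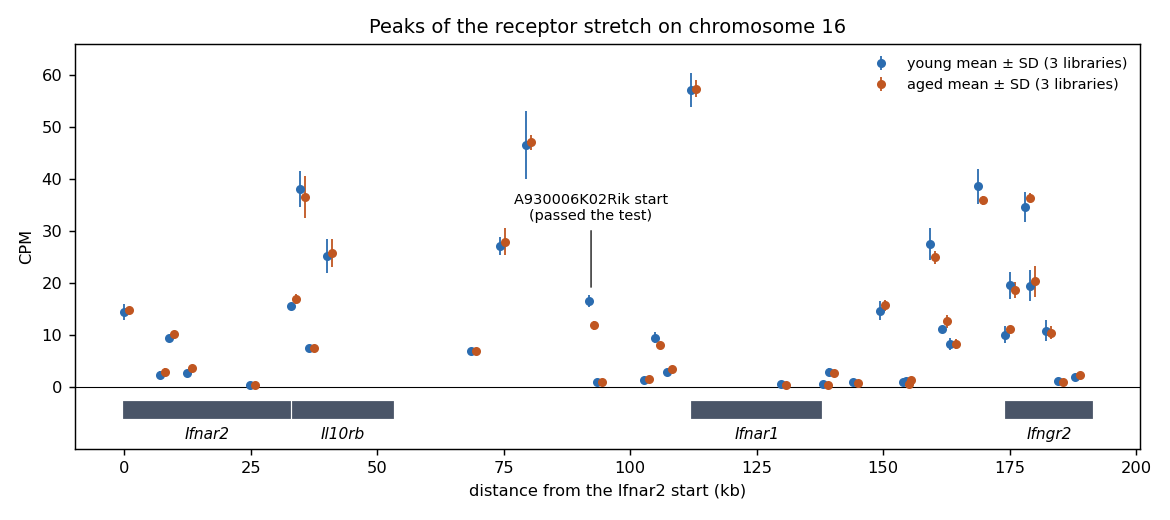
Mean CPM ± SD (y axis) of young and aged libraries (3 each) at the 36 peaks of the chromosome 16 stretch, by distance from the Ifnar2 start in kb (x axis). Dark bars under the axis mark the RefSeq spans of the 4 receptor genes. Young and aged points lie close together throughout, apart from the labelled A930006K02Rik promoter, at 15.2 to 17.4 CPM in young and 10.8 to 12.4 in aged libraries.

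Ifnlr1 and Il22ra1 are neighbours as well, on chromosome 4, with 20.0 kb between the end of the one and the start of the next. Over the RefSeq spans of the receptor genes 11 peaks carry the name of another gene, 9 of them tested and 0 called. The strongest lies at the end of Il22ra1 and is named Gm12988, at 62.0, 50.5 and 60.5 CPM in young and 52.96, 49.9 and 54.2 in aged libraries. With these, 52 peaks lay over the spans, 48 were tested and 0 were called.

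The limit of 50 kb cut off part of the Ifngr1 surroundings. The outermost peaks inside it, 42.5 kb from Ifngr1 and 43.2 and 44.3 kb from Il13ra1, held 272, 262 and 106 counts over the 6 libraries. The nearest outside lay 55.2 kb from Il13ra1, with 31 counts, and 57.9 and 60.3 kb from Ifngr1, with 2419 and 7455.

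Around the receptors, lists of genes of the same pathways were read against the background of all genes on summed counts, of which 1.39% were called and 11.0% had an unadjusted p under 0.05. Of 28 tested genes for other epithelial and shared cytokine receptors 2 passed the test as lower in aged and 0 as higher (median log2 -0.05). The unadjusted p was under 0.05 for 11 of the 28. Lifr, the LIF receptor, fell from 25.2, 26.8 and 26.8 to 14.7, 19.2 and 21.7 CPM (log2 -0.51, SE 0.12, edgeR adjusted p = 0.0244). Of its 10 tested peaks 10 were negative but only 1 was called, 49.2 kb upstream of the TSS. These peaks share a locus and libraries and are not replicates. The Lifr call on summed counts was lost without young replicate 1 (0.0752), young replicate 2 (0.0502) and aged replicate 1 (0.163). Csf2ra, the alpha chain of the GM-CSF receptor, fell from 50.6, 56.6 and 56.2 to 45.0, 43.1 and 45.2 CPM (log2 -0.31, SE 0.070, edgeR adjusted p = 0.0245). Of its 2 tested peaks 0 were called. The call on the Csf2ra sum held only without young replicate 1 (0.0239) among the 6 fits that leave out a library, with 0.0525 to 0.110 in the others. It was lost in thinned libraries (0.167). Il20rb, a chain of the IL-20 receptors, was at 46.9, 55.5 and 55.5 against 64.5, 61.6 and 62.3 CPM (log2 0.24, edgeR adjusted p = 0.127, and 0.0383 with the replicate block).

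Of 16 tested genes for receptors mainly of lymphoid and myeloid cells 1 passed, Il7r, the IL-7 receptor alpha chain, and 3 had an unadjusted p under 0.05 (median log2 0.01). Il7r rose from 4.31, 3.55 and 3.46 CPM in young to 10.8, 11.9 and 13.2 in aged libraries (log2 1.71, SE 0.15; edgeR adjusted p = 6.8e-07). The gain lay in 3 tested intergenic peaks 27.4, 33.2 and 34.2 kb upstream of the TSS, of which the first, from 2.25, 1.51 and 2.16 to 6.32, 7.07 and 7.96 CPM, and the last passed the test, and no Il7r peak lay within 1 kb of the TSS. The call held in each fit that leaves out a library (adjusted p of 2.8e-07 to 2.1e-05). Summed promoter levels of the immune markers were 10.5 to 11.8 CPM in young and 9.86 to 11.4 in aged libraries. Of the 17 markers 4 (Cd79a, Lyz2, Cd68 and Itgax) had a promoter peak, at up to 22.2 CPM per kb. The others, Ptprc, Cd3e and Spi1 among them, had none. The part of immune cells in the Il7r values was not tested. The other members with the smallest p, Tnfrsf9 (log2 0.37, edgeR adjusted p = 0.221) and Cxcr4 (-0.27, adjusted p = 0.449), did not pass.

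Signalling and feedback genes directly below the receptors gave 0 calls among 27 tested, with 3 at an unadjusted p under 0.05 and a median log2 of 0.05. These were Usp18, which dampens type I interferon signalling at Ifnar2 (36.6, 39.2 and 35.3 against 41.9, 45.7 and 42.5 CPM; log2 0.22, edgeR adjusted p = 0.212), Jak1 (0.16, adjusted p = 0.338) and Jak2 (0.14, adjusted p = 0.404). In all 3 the aged libraries lay above the young ones, but they were picked for the smallest p of the list. The share of all genes with such a separation was not computed. At its promoter Jak2 was at 0.32 (edgeR adjusted p = 0.0525). Of 10 tested ligand genes 0 were called, with 0 at an unadjusted p under 0.05, and the smallest p belonged to Tnf (0.19), Il10 (-0.14) and Ifng (0.28). The promoter peaks of all 4 lists gave 0 calls.

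Over the 6 libraries the mean standardised profile of the 10 receptors was highest in aged replicate 1 and lowest in young replicates 1 and 2. The genes most like it were Bivm (Pearson r = 0.998), RP23-214I6.3 (0.981) and Dcpp3 (0.980), of 29246 genes compared. With 6 libraries that share their depth and scaling, this is a description only.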

How the data were processed

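The authors deposited raw counts per consensus peak for each library and a separate annotation of these peaks (build GRCm38). The counts were made with featureCounts, per the file headers. Tools listed in the submitters' processing notes include MACS2 2.2.7.1, featureCounts 2.0.1, Picard 2.23.1, BWA 0.7.17-r1188 and Trim Galore 0.6.4. Any shift of reads for the Tn5 offset and the treatment of duplicates are not given in the sources used here. Counts without molecular identifiers carry counting error and PCR error together.

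From the deposited counts, CPM were computed with TMM-scaled totals. Aged was tested against young over all peaks with edgeR 4.0.16 (R 4.3.3, robust quasi-likelihood F test, filterByExpr with minimum count 10), and again on counts summed per gene. Calls had a Benjamini-Hochberg adjusted p under 0.05 over everything tested. The fit was also run on simulated counts, but no statement here rests on the outcome. DESeq2 1.42.0 served as an alternative. Promoter sequences are RefSeq's (GRCm38.p6), copied for 9 of the 10 genes.

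The receptor genes, gene lists, tests and alternatives were chosen with earlier results of these data known. Named in full were each gene's promoter peak, its strongest other peak, the 12 receptor peaks with the smallest p and called peaks, and of each list the called genes and the 3 with the smallest p. The titles give same-numbered young and aged libraries a shared culture code and passage, although the descriptions give another code to replicates 2 and 3. The numbers were taken as pairs in the descriptions by pair and in the fit with the replicate block. The main fit held age alone, so its p-values and intervals ignore the pairs. Deviations from the group means correlated at 0.091, 0.167 and 0.181 within pairs 1, 2 and 3, and every library had its highest correlation with the one of the same number.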

Additional observations from a re-analysis of the deposited data

How the results depend on the processing

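No receptor peak, receptor promoter or receptor gene was called under any of these settings: other size factors, no filter, DESeq2, the replicate block, passage as a covariate, thinning, each library left out, or limits of 10 and 100 kb. The smallest adjusted p of a receptor peak was 0.149 with the replicate block and 0.177 without young replicate 2. Over these the median log2 fold change of the receptor peaks stayed positive, from 0.0057 without young replicate 2 to 0.12 without young replicate 3. The only count that moved among receptor regions was that of the whole chromosome 16 stretch, chosen after seeing the data, with 1 call. Over all peaks the count of calls was 1491, 876 with DESeq2, 3523 with the replicate block, 682 in thinned libraries and 830 to 1902 with 1 library left out, lowest without aged replicate 3. The replicate block changed no call of a named receptor peak or gene. Depth was lowest in young replicate 1, at 7278161 counts; without it 82 receptor peaks were tested and 0 called.

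Small differences near 0 changed sign, and the cause was not tested. Among the log2 fold changes of the start peaks these were Ifngr1 (-0.0497 to 0.111 with 1 library left out), Ifnar1 (-0.007 thinned, -0.0324 to 0.0452 with 1 library left out), Ifnar2 (-0.0059 on library totals, -0.0482 to 0.117 with 1 library left out), Ifnlr1 (-0.0682 to 0.156 with 1 library left out), Il22ra1 (-0.0927 to 0.0681 with 1 library left out), Il4ra (0.0018 with passage as covariate, 0.0967 thinned, -0.0465 to 0.0435 with 1 library left out) and Tnfrsf1a (-0.0031 to 0.181 with 1 library left out). Among intronic peaks they were Ifngr1 (-0.0268 thinned), Il10rb (0.0054 thinned, -0.104 to 0.0426 with 1 library left out) and Il13ra1 (-0.0575 thinned, -0.0395 to 0.129 with 1 library left out). On summed counts they were Ifngr1 (0.0022 with passage as covariate, 0.0303 thinned, -0.0749 to 0.124 with 1 library left out), Ifngr2 (-0.0776 to 0.138 with 1 library left out), Ifnar1 (-0.0332 to 0.008 with 1 library left out), Ifnlr1 (-0.0672 within 10 kb), Il10rb (-0.0046 on library totals, -0.0059 with the replicate block, -0.0038 with passage as covariate, -0.0084 within 10 kb, -0.0386 to 0.0376 with 1 library left out) and Il22ra1 (-0.0234 within 10 kb, -0.034 to 0.107 with 1 library left out).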
